A study of Mus musculus with 9 samples.

Results

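The comparison described here set tibialis anterior muscle given construct 5, a small interfering RNA (siRNA) against Ubr4, beside muscle given a non-targeting siRNA. It rests on 6 of the 9 libraries of the series, 3 per group, chosen by the siRNA named in their labels. All 9 libraries came from C57BL/6 mice aged 6 months whose muscle had been electroporated with siRNA; the remaining 3 libraries carried construct 7, a second siRNA against the same gene. Every group therefore shares the electroporation, and the siRNA is the only difference between groups that the labels name. The labels do not say whether the libraries of a group came from separate animals, so p-values measure the spread between these libraries, which may be technical. The RNA was taken from whole muscle, in which fewer cells of a type and less RNA per cell cannot be told apart. Expression was given as FPKM (fragments normalised to gene length and to sequencing depth), and changes below are differences of log2(FPKM + 1), a scale that understates the change of low genes. Of 23231 genes in the deposited table, the 10794 with a mean of at least 1 FPKM over the 9 libraries were tested with limma, and a gene was called when its Benjamini-Hochberg adjusted p was under 0.05.

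UBR4 is a very large E3 ubiquitin ligase of the N-degron pathway, which reads the residue at the start of a protein and marks the protein for destruction. Ligases receive activated ubiquitin from E2 conjugating enzymes, the family to which Ube2e1 belongs. Part of what follows concerns Nrf2 (gene Nfe2l2), a transcription factor that is itself controlled by ubiquitin: Keap1 hands it to a Cul3 ligase for destruction until oxidants or electrophiles interrupt the transfer. Nrf2 then pairs with small Maf proteins and binds antioxidant response elements in front of genes of glutathione, thioredoxin and NADPH metabolism.

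Antioxidant response elements share the core TGACNNNGC. The core was searched on both strands of RefSeq promoter windows (build GRCm38.p6, 250 bases before to 50 bases after each start site) because genes of this pathway were among those that rose with construct 5. It was found in 7 of the 20 tested genes of the Nrf2 target list that have a window, in 17.6% of all 7192 tested genes with a window, in 12.4% of all 32851 windows and in 68 of 339 genes called higher (20.1%). Each match is printed 5′ to 3′ on the strand that carries the core, with the core in capitals and 10 bases on each side.
Srxn1, chr2:152105542-152105570, minus strand: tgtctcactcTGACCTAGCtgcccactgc
Txnrd1, chr10:82859104-82859132, minus strand: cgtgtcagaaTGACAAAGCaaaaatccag
Prdx1, chr4:116685456-116685484, minus strand: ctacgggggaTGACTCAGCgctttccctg
Gclm, chr3:122245413-122245441, minus strand: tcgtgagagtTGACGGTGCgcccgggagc
Pgd, chr4:149166061-149166089, minus strand: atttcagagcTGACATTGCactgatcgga
G6pdx, chrX:74428919-74428947, plus strand: gcgtgtgcttTGACTGAGCtgacccgcct
Me1, chr9:86695902-86695930, minus strand: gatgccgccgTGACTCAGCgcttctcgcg
The core overlaps the AP-1 site TGACTCA, which the Prdx1 and Me1 matches also contain. A match describes the letters of the window and is neither a binding site shown in these muscles nor a cause. The windows of Nqo1, Sqstm1 and Ftl1 held no match.

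Ubr4 itself stood at 7.82, 10.3 and 9.09 FPKM in the control libraries and at 3.61, 3.80 and 2.73 FPKM with construct 5. No construct 5 library reached the lowest control. limma gave a log2 change of -1.20 (SE 0.129, adjusted p = 0.0168), and the exact two-sided permutation test of the 6 libraries gave p = 0.1, the smallest that 3 against 3 allows. Under 16 other settings of the analysis, the limma adjusted p ranged from 0.00414 to 0.0956 and the call held in 12. It did not hold when genes of low FPKM were kept in, or when control replicate 2 or 3 or the first construct 5 library was left out.

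limma called 569 genes (5.27% of those tested), 504 higher (4.67%) and 65 lower (0.602%). A typical call was small: the median log2 change was 0.41 among genes called higher and -0.45 among those called lower, 13 of the higher genes reached 1 and 3 of the lower genes reached -1. Among all tested genes, called or not, 47 (0.435%) reached 1 and 3 (0.0278%) reached -1. Genes called higher deviated from the control mean by a median of 0.48, 0.38 and 0.34 in construct 5 replicates 1, 2 and 3, and genes called lower by -0.52, -0.35 and -0.45. In the construct 7 libraries, measured against the same control mean, they deviated by 0.12, 0.18 and 0.14 and by -0.07, -0.16 and -0.12.

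**Figure D1:**
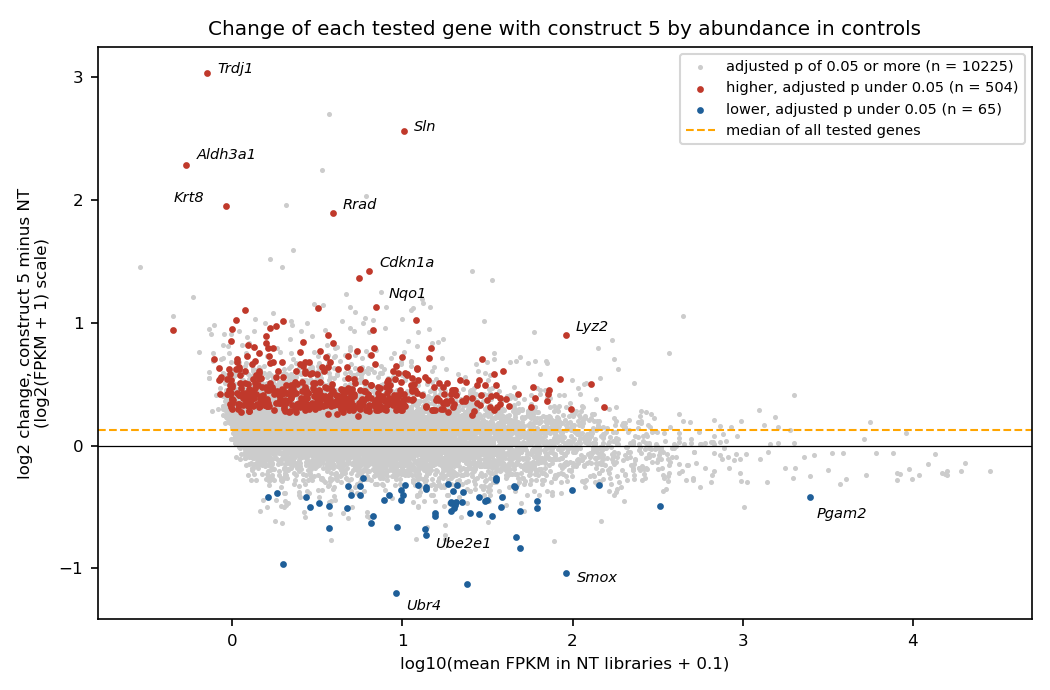
Each point is 1 of the 10794 tested genes. The x axis is log10 of the mean control FPKM plus 0.1 and the y axis the log2 change, construct 5 minus non-targeting (NT), on the log2(FPKM + 1) scale. The 504 genes called higher lie mostly at low abundance, as do most tested genes, and the 65 called lower reach further right. The dashed line marks the median of all genes, 0.13.

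The excess of higher calls went with a shift of the whole distribution. Of the tested genes, 8283 (76.7%) had a change above 0, and the median of all genes was 0.13. The shift depended on abundance: the median change was 0.18 over 2352 genes under 2 FPKM in the controls, 0.14 over 5114 genes of 2 to 10 FPKM, 0.07 over 2903 genes of 10 to 100 FPKM, -0.02 over 377 genes of 100 to 1000 FPKM and -0.16 over 48 genes of 1000 FPKM or more. The 50 genes most abundant in the controls, mostly contractile, glycolytic and mitochondrially encoded, held 61.2%, 59.3% and 59.2% of all FPKM in the control libraries and 54.6%, 56.4% and 58.1% with construct 5. In the construct 7 libraries they held 59.2%, 58.4% and 59.0%.

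Median-ratio scaling, which aligns the libraries on their middle genes, moved the median of all genes to 0.01 and left 14 genes called higher (0.13%) and 64 lower (0.593%). Of the original calls, 14 higher and 51 lower genes were among them. The 14 were Cd55, Copb1, Gsr, Id2, Kera, Nqo1, Nt5dc1, Per2, Plod2, Spcs3, Spon2, Tmem176b, Trdj1 and Ubtd2. As deposited, the construct 5 libraries lay above all controls for 33.0% of tested genes and below them for 5.19%. After the scaling these shares were 14.4% and 15.6%. Counts of genes above or below all controls in the lists that follow use the values as deposited. Calls also depended on single libraries. Without control replicate 1, 2 or 3, limma called 1, 3 and 1 genes higher and 3, 1 and 1 lower. Without construct 5 replicate 1 it called 0 higher and 1 lower, without construct 5 replicate 2 it called 22 and 19, and without construct 5 replicate 3 it called 492 and 33. Leaving out construct 7 replicate 1 gave 308 higher and 48 lower, and leaving out construct 7 replicate 3 gave 4 and 2. For gene groups, changes are therefore given beside the median of all genes. Counts of calls in a list are to be read beside the 4.67% of all tested genes called higher and the 0.602% called lower. For single called genes the number of those 16 settings that kept the call is given. For genes averaging under 5 FPKM the number is of 15, because the setting with a minimum of 5 FPKM did not test them.

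**Figure D2:**
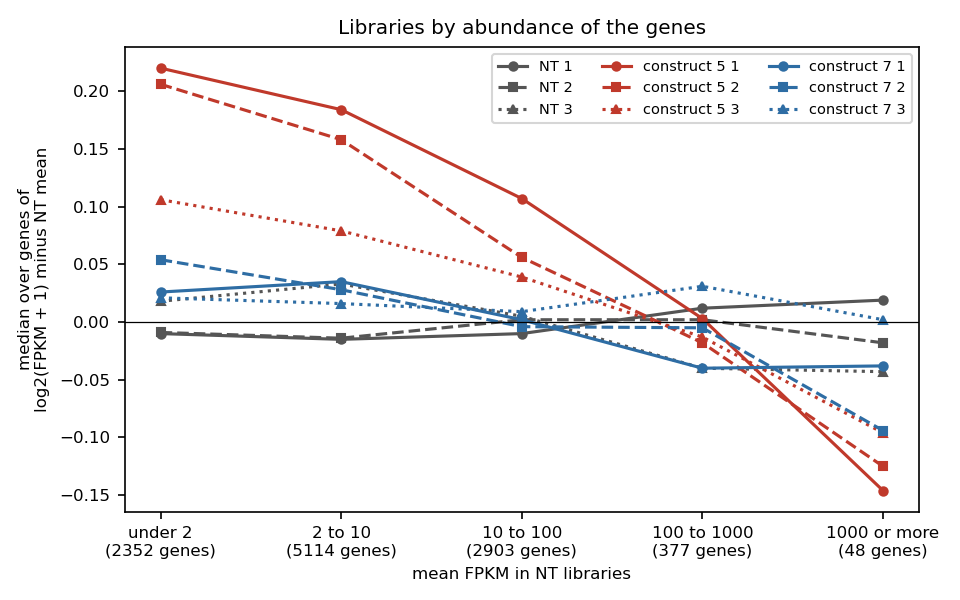
The 5 points of each line are the medians, over the genes of an abundance class, of log2(FPKM + 1) in 1 library minus the control mean; the x axis gives the class by mean control FPKM with its number of genes. The construct 5 lines run downward from left to right, from 0.18 to -0.16 in the group median, with construct 5 replicate 1 steepest and replicate 3 flattest.

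The gene with the steadiest difference was Ube2e1, an E2 conjugating enzyme. It measured 13.5, 13.4 and 13.1 FPKM in the controls, 8.03, 8.08 and 7.83 FPKM with construct 5, and 14, 14.9 and 14.4 FPKM with construct 7. The 3 construct 5 libraries were nearly equal and lay below every other library. The log2 change was -0.68 (SE 0.0572, limma adjusted p = 0.00631), called under 16 of 16 settings (0.00173 to 0.0494), and the difference from construct 7 was -0.78 (adjusted p = 0.00178). Of the genes named here, only Ube2e1 kept its call in every setting that tested it. Ube2e3, a close relative of Ube2e1, measured 4.15, 3.90 and 4.41 FPKM in the controls and 4.01, 4.43 and 3.60 FPKM with construct 5, a change of -0.04 (adjusted p = 0.751).

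The other E2 enzymes did not share this pattern. Of 31 tested members of the list, 2 were called higher and 1, Ube2e1, lower, beside 4.67% and 0.602% of all tested genes. The list median was 0.12, or -0.02 after median-ratio scaling. Ube2z, which charges ubiquitin and the related modifier FAT10, rose from 7.93, 8.05 and 8.02 to 10.9, 10.6 and 9.53 FPKM (log2 change 0.33, adjusted p = 0.0406, kept in 6 of 16). Ube2d2 rose by 0.29 (adjusted p = 0.0492, kept in 2 of 16). A list of 17 genes, drawn up for N-recognins and enzymes that prepare N-degrons, also holds the calcyclin-binding protein Cacybp. In it, Cacybp (0.35, kept in 4 of 16) and the methionine aminopeptidase Metap1 (0.36, kept in 3 of 16) were called higher and Ubr4 lower. The shares over all tested genes were 4.67% and 0.602%. Kcmf1, a ligase found in complex with UBR4, measured 51.3, 49.7 and 52.6 FPKM in the controls and 42.6, 41.6 and 43.4 FPKM with construct 5, a change of -0.26 that was not called (adjusted p = 0.0845). Its construct 5 libraries all lay below the controls. Of 18 atrophy and FoxO ligases 2 were called higher, beside 4.67% of all tested genes. Trim63, the muscle ligase MuRF1, rose from 59.3, 54.6 and 60.3 to 88.2, 72.3 and 83.7 FPKM. Its change was 0.48 (adjusted p = 0.0406, kept in 8 of 16), and that of Fbxo30 was 0.43 (kept in 3 of 15). The median of that list was 0.01, below the 0.13 of all genes.

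**Figure D3:**
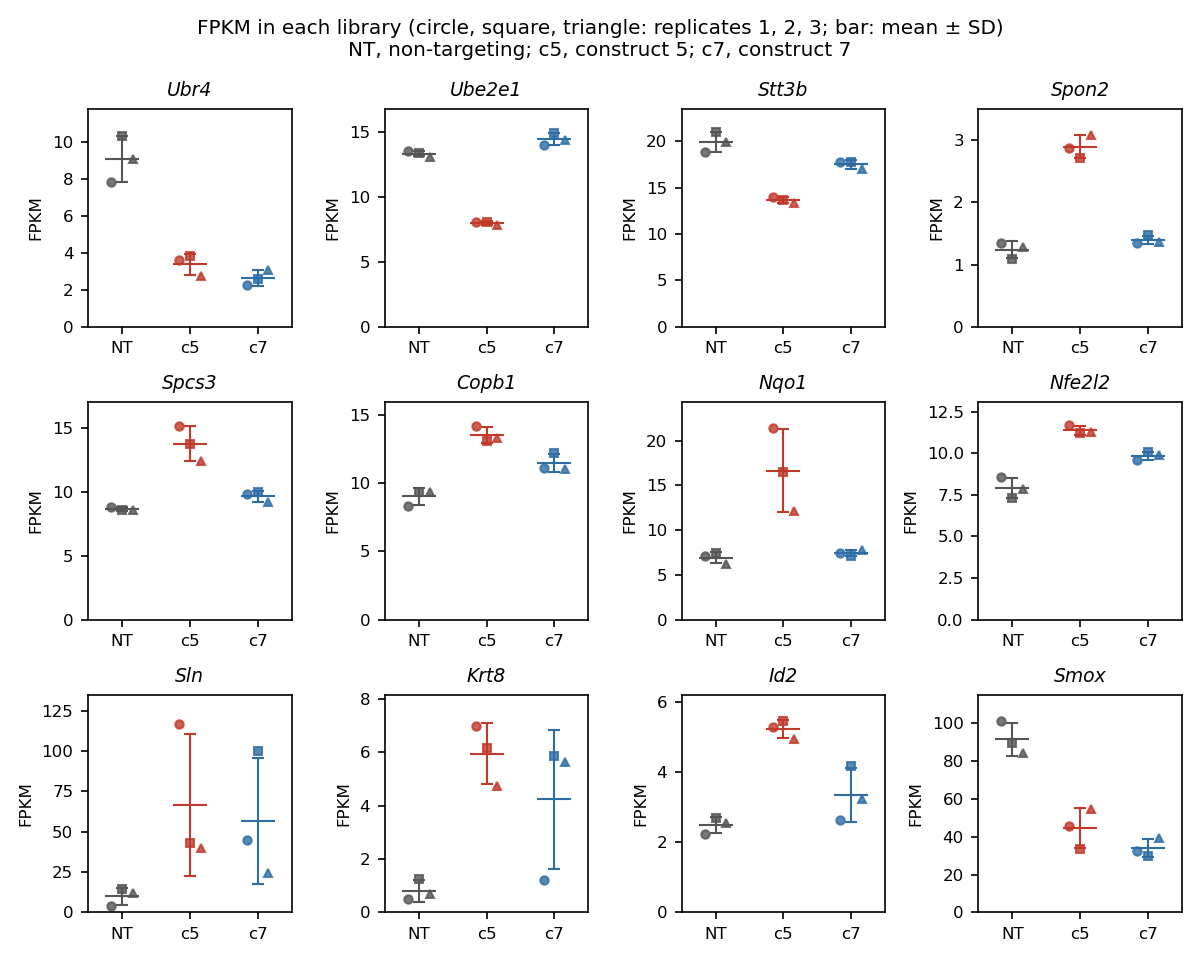
Each panel gives 1 gene, with FPKM on a linear axis from 0 and the 3 libraries of the non-targeting (NT), construct 5 (c5) and construct 7 (c7) groups as a circle, square and triangle for replicates 1, 2 and 3; bars are the mean ± SD, n = 3. In Ube2e1, Stt3b, Spon2, Spcs3 and Nqo1 the construct 5 libraries stand apart from both other groups, whereas Ubr4, Smox and Sln lie outside the control range with either construct.

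Spon2, which encodes the secreted matrix protein spondin 2, measured 1.34, 1.09 and 1.29 FPKM in the controls and 2.88, 2.72 and 3.09 FPKM with construct 5. The construct 7 libraries, at 1.35, 1.47 and 1.37 FPKM, lay beside the controls. The log2 change was 0.80 (SE 0.0728, adjusted p = 0.00631), kept under 14 of 15 settings (0.00612 to 0.0594), and it exceeded that of construct 7 by 0.70 (adjusted p = 0.00965). Id2, an inhibitor of basic helix-loop-helix transcription factors, rose from 2.23, 2.70 and 2.55 to 5.28, 5.46 and 4.95 FPKM (0.84, adjusted p = 0.0344, kept in 8 of 15). The clock gene Per2 rose from 1.09, 0.895 and 1.05 to 1.95, 2.04 and 1.61 FPKM (0.51, kept in 7 of 15). Among genes called lower, the phosphatase Ptpn11 (SHP2), which relays growth factor signals, fell from 19.6, 18.6 and 19.2 to 12.1, 14.5 and 14 FPKM (-0.47, kept in 9 of 16). Acid sphingomyelinase, Smpd1, fell from 33.1, 34.9 and 32.7 to 19.1, 25 and 23 FPKM (-0.57, kept in 9 of 16). Tulp4 fell by 0.63 on the log2 scale and kept its call in 10 of 16.

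Several genes of the secretory route were called, in both directions. Spcs3, a subunit of the signal peptidase that trims proteins entering the endoplasmic reticulum, rose from 8.86, 8.60 and 8.59 to 15.2, 13.8 and 12.4 FPKM (0.61, SE 0.0786, adjusted p = 0.0344, kept in 10 of 16), and it differed from construct 7 by 0.47 (adjusted p = 0.0345). Stt3b, a catalytic subunit of the oligosaccharyltransferase that adds N-linked sugars, fell from 18.9, 21 and 19.9 to 14, 13.7 and 13.4 FPKM (-0.51, SE 0.0633, adjusted p = 0.0344, kept in 10 of 16). It differed from construct 7 by -0.34 (adjusted p = 0.0463). Stt3a, which encodes the alternative catalytic subunit, measured 2.73, 3.33 and 2.79 FPKM in the controls and 4.10, 4.19 and 3.54 FPKM with construct 5, a change of 0.32 that was not called (adjusted p = 0.0779). The libraries of the 2 groups did not overlap for either paralog, and the differences had opposite signs. Ssr3, of the translocon-associated complex, rose by 0.39 (kept in 3 of 16). Over 37 tested genes of endoplasmic reticulum entry and N-glycosylation, a list made after values were seen, 2 were called higher and 1 lower. Of all tested genes 4.67% and 0.602% were so called. That choice of members affects the counts, so no excess can be read from them. The list median was 0.16 beside 0.13 for all genes. Hsp90b1, the endoplasmic reticulum chaperone GRP94, rose from 24.2, 23.5 and 23.5 to 39.9, 34.4 and 29.9 FPKM (0.52, adjusted p = 0.0406, kept in 7 of 16).

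Vesicle coats and tethers showed the same mixture. COPI coats return vesicles from the Golgi, COPII coats carry them forward, and the TRAPP complex tethers them. The COPI subunit Copb1 rose from 8.31, 9.37 and 9.34 to 14.2, 13.1 and 13.3 FPKM (0.54, adjusted p = 0.0344, kept in 9 of 16), with 11.1, 12.2 and 11 FPKM under construct 7. Copa rose by 0.32 (kept in 4 of 16), the GTPase Arf4 by 0.38 (5 of 16) and the TRAPP subunit Trappc4 by 0.42 (6 of 16). The COPII subunit Sec23a fell from 17.2, 19.2 and 21.3 to 12.7, 15 and 13.4 FPKM (-0.46, adjusted p = 0.0476, kept in 6 of 16), whereas construct 7 gave 27.3, 23 and 23 FPKM, above every control. The difference between the constructs was -0.79 (adjusted p = 0.0195). The TRAPP subunit Trappc1 fell from 22, 24.7 and 20.4 to 14.6, 17.1 and 16 FPKM (-0.46, kept in 7 of 16) and differed from construct 7 by -0.65 (adjusted p = 0.0199). Trappc3 fell by 0.32 on the log2 scale and kept its call in 2 of 16. In the list of 38 coat and tether genes, also made after values were seen, 4 were called higher and 3 lower. Of all tested genes 4.67% and 0.602% were so called. Because of how the list was made, its counts cannot be read as an excess. The list median was 0.19, or 0.05 after median-ratio scaling.

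Genes of the fibre surface included 3 lower calls. Sgca, the sarcoglycan alpha subunit of the dystrophin complex, fell from 100, 99 and 98 to 74.7, 76.5 and 80.1 FPKM (-0.36, SE 0.0611, adjusted p = 0.0406, kept in 8 of 16). Caveolin 3, Cav3, fell from 44.6, 44.4 and 49 to 34.2, 35.8 and 38.4 FPKM (-0.34, adjusted p = 0.0471, kept in 6 of 16). Popdc2, a cAMP-binding membrane protein of striated muscle, fell from 27.9, 27.2 and 28.4 to 17.2, 18.3 and 20.6 FPKM (-0.56, adjusted p = 0.0344, kept in 8 of 16). Sarcospan, Sspn, which binds the sarcoglycans, went the other way, from 19.8, 19.8 and 21 to 26.2, 28.8 and 29.1 FPKM (0.45, adjusted p = 0.0344, kept in 7 of 16). With construct 7 Sspn measured 20.7, 19.7 and 20 FPKM, and the difference between constructs was 0.45 (adjusted p = 0.0224). In all, 1 of 26 tested genes of a dystrophin complex and sarcolemma list made after values were seen was called higher and 3 lower. Of all tested genes 4.67% and 0.602% were so called. As members were chosen with values known, the counts cannot be read as an excess. The list median of 0.08 became -0.05 after median-ratio scaling.

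Most Nrf2 targets, 24 of 26 tested, had changes above 0 with construct 5, beside 76.7% of all tested genes, and none was called lower. In all 6 were called higher, beside 4.67% of all tested genes, and 2 were called after median-ratio scaling. The construct 5 libraries of 15 lay above all controls and those of 0 below them, where 33.0% and 5.19% of all tested genes did so. The median was 0.35, which is 0.22 above that of all genes, or 0.23 after median-ratio scaling. Construct 7 gave a median of 0.10 against the same controls. Nfe2l2, which encodes Nrf2, rose from 8.57, 7.34 and 7.83 to 11.7, 11.2 and 11.3 FPKM (0.48, SE 0.0677, adjusted p = 0.0344, kept in 7 of 16). With construct 7 it measured 9.60, 10.1 and 9.89 FPKM, between both other groups. Among the other regulators, the small Maf gene Mafg had a change of 0.44 (adjusted p = 0.0799) and Cul3 one of -0.19 (adjusted p = 0.141), neither called.

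Nqo1, a quinone reductase and the standard readout of Nrf2, measured 7.12, 7.39 and 6.26 FPKM in the controls and 21.4, 16.5 and 12.1 FPKM with construct 5. All 3 construct 5 libraries lay above the 7.42, 7.14 and 7.83 FPKM of construct 7. The log2 change was 1.13 (SE 0.162, adjusted p = 0.0344, kept in 8 of 16, 0.0248 to 0.121), and the difference from construct 7 was 1.03 (adjusted p = 0.0305). The aldehyde dehydrogenase Aldh3a1 went from 0.0351, 0.430 and 0.842 FPKM to 4.54, 6.44 and 6.53 FPKM. Its change was 2.28 (adjusted p = 0.0406, kept in 8 of 15), and unlike Nqo1 it stood at 4.19, 4.72 and 16.2 FPKM with construct 7. Glutathione reductase, Gsr, rose from 5.41, 5.64 and 5.46 to 10.9, 8.20 and 8.25 FPKM (0.62, kept in 9 of 16) and measured 7.56, 7.65 and 8.51 FPKM with construct 7. Sulfiredoxin, Srxn1, rose from 14.1, 12.2 and 10.2 to 20.8, 19.6 and 17.2 FPKM (0.63, adjusted p = 0.0493, kept in 4 of 16). The autophagy receptor Sqstm1 (p62), which binds Keap1, rose from 121, 145 and 118 to 212, 159 and 176 FPKM (0.50, adjusted p = 0.0493, kept in 1 of 16).

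The thioredoxin and NADPH branches held smaller differences. Thioredoxin, Txn1, rose from 33.4, 37.6 and 32.3 to 60.6, 52.4 and 43.5 FPKM (0.58, kept in 3 of 16). Its reductase Txnrd1 had a change of 0.40 that was not called (adjusted p = 0.0531), as had the pentose phosphate enzymes Pgd (0.59, adjusted p = 0.0559) and G6pdx (0.28, adjusted p = 0.0844). Their construct 5 libraries all lay above the controls. Ferritin light chain Ftl1 and haem oxygenase Hmox1 had changes of 0.58 (adjusted p = 0.0524) and 0.66 (adjusted p = 0.0585). Of the 7 targets whose windows hold the core, Srxn1 was called and Me1 had a change of -0.04. Hmox1 and Ftl1 are also active in macrophages, whose markers were higher in the same libraries, and the part of those cells in the list was not tested.

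**Figure D4:**
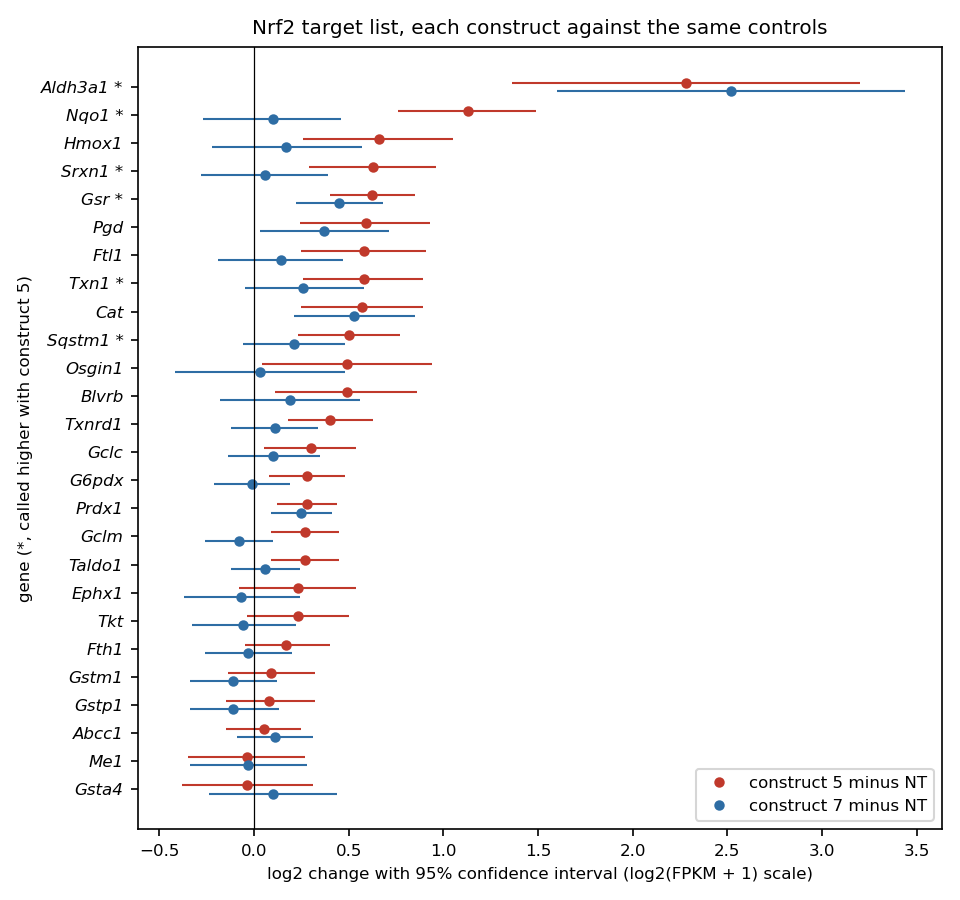
Log2 change of the 26 tested Nrf2 targets with construct 5 (red) and construct 7 (blue), each minus the same control libraries, with 95% confidence intervals on the x axis and genes ordered by the construct 5 change; an asterisk marks a call with construct 5. Nqo1 and Srxn1 stand further right with construct 5, at 1.13 and 0.63 against 0.10 and 0.06, while Aldh3a1 is near 2.28 and 2.52 with either construct.

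Some stress and growth-arrest genes rose as well. Of 18 tested members of the p53 list, 4 were called higher and 0 lower, where 4.67% and 0.602% of all tested genes were. No member was called after median-ratio scaling. In this list 14 had changes above 0, beside 76.7% of all genes. The construct 5 libraries of 7 lay above all controls and those of 2 below, beside 33.0% and 5.19%. The list median was 0.21 beside 0.13 for all genes, or 0.11 after median-ratio scaling. Cdkn1a, the cell cycle inhibitor p21, measured 5.43, 6.92 and 6.36 FPKM in the controls and 20.3, 19.7 and 15.3 FPKM with construct 5. Its log2 change was 1.42 (adjusted p = 0.0445, kept in 7 of 16). With construct 7 it measured 8.76, 25.8 and 17.1 FPKM, a log2 change of 1.22 (adjusted p = 0.286). Mdm2, the ligase that marks p53 for destruction, rose from 9.19, 7.93 and 10.4 to 13.6, 11.6 and 12.1 FPKM (0.41, adjusted p = 0.0494, kept in 1 of 16). Rrad, a small GTPase that restrains calcium channels, measured 2.69, 5.07 and 3.60 FPKM in the controls and 18.7, 15.5 and 15.2 FPKM with construct 5 (1.89, adjusted p = 0.0406, kept in 8 of 16). Its construct 7 libraries spread from 6.64 to 22.4 FPKM. Trp53 itself had a change of 0.27 that was not called (adjusted p = 0.104).

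Of 11 tested keratins and other intermediate filaments, 1 was called higher and none lower, beside 4.67% and 0.602% of all tested genes. In this list 10 had changes above 0, as did 76.7% of all genes. Keratins are scarce in adult fibres. Krt8 rose from 0.491, 1.27 and 0.675 to 6.98, 6.16 and 4.74 FPKM (1.95, adjusted p = 0.0406, kept in 6 of 15), and its partner Krt18 measured 0.926, 2.08 and 1.70 FPKM in the controls and 5.94, 5.60 and 7.17 FPKM with construct 5 (1.52, adjusted p = 0.0587). Desmin, the main intermediate filament of muscle, overlapped between the groups, with a change of 0.16. Sln, which encodes the calcium pump inhibitor sarcolipin, measured 4.24, 14.3 and 11.8 FPKM in the controls and 117, 42.7 and 39.6 FPKM with construct 5 (2.56, adjusted p = 0.0491, kept in 4 of 16). The fast-fibre calcium pump Atp2a1 overlapped between the groups (-0.06), and the slow pump Atp2a2 had a change of 0.68 that was not called (adjusted p = 0.0949). None of 18 developmental and cardiac sarcomere genes was called. In this list 13 had changes above 0, the construct 5 libraries of 9 lay above all controls and those of 1 below, where 33.0% and 5.19% of all tested genes did so, and the median was 0.46. The gene below was Xirp2, an actin-binding protein of striated muscle, at 150, 183 and 157 FPKM in the controls and 116, 128 and 135 FPKM with construct 5 (-0.37, adjusted p = 0.0727). Embryonic myosin Myh3 measured 0.766, 3.15 and 2.59 FPKM in the controls and 8.61, 7.14 and 8.12 FPKM with construct 5 (1.59, adjusted p = 0.0813). The median deviations of this list in the construct 7 libraries were -0.63, 0.73 and 0.12, the widest range of the 33 lists in that group.

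Of 15 acetylcholine receptor and denervation genes 2 were called higher, where 4.67% of all tested genes were, and none was called after median-ratio scaling. The median was 0.32 beside 0.13 for all genes, or 0.20 after that scaling. With construct 7 the list median was 0.20. One of the 2 called genes, Gadd45a, rose from 10.8, 11.9 and 12.9 to 35.4, 20.7 and 21.4 FPKM. Its change was 1.02 (adjusted p = 0.0423, kept in 7 of 16). Myog, the transcription factor myogenin that drives receptor genes in denervated fibres, measured 4.50, 6.95 and 8.28 FPKM in the controls and 18.3, 11.5 and 13.1 FPKM with construct 5 (1.02, adjusted p = 0.0589). Construct 5 replicate 1 was the highest library for Myog and for Gadd45a, and the list's median deviation was 0.73 in that library against 0.15 and 0.20 in replicates 2 and 3. Rapsn, the receptor's anchoring protein, overlapped between the groups, with a change of -0.03.

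Several metabolic genes fell. Smox, which oxidises spermine to spermidine, fell from 101, 89.4 and 84 to 45.6, 33.5 and 54.5 FPKM (-1.04, SE 0.166, adjusted p = 0.0406, kept in 9 of 16), and it was 1 of the 6 genes (0.0556% of those tested) called with construct 7 against the same controls (-1.41, adjusted p = 0.0277). Dohh, which completes the spermidine-derived hypusine of the translation factor eIF5A, fell from 12, 12.1 and 12.5 to 9.55, 10 and 9.08 FPKM (-0.32, adjusted p = 0.0437, kept in 6 of 16). These were the 2 lower calls among 16 polyamine genes, and none was called higher, beside 0.602% and 4.67% of all tested genes. Sat1, which acetylates polyamines for export, had a change of 0.44 that was not called (adjusted p = 0.0673).

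The breakdown of branched-chain amino acids had 2 lower calls and none higher among 25 genes, beside 0.602% and 4.67% of all tested genes. After median-ratio scaling 1 member was called. The median was -0.09 beside 0.13 for all genes. Mccc2, a subunit of the leucine pathway's carboxylase, fell from 13.8, 12.1 and 14.9 to 6.05, 10.3 and 7.49 FPKM (-0.73, adjusted p = 0.0447, kept in 6 of 16). Bckdha, a subunit of the committing dehydrogenase, had a change of -0.30 (adjusted p = 0.0896) and its inhibitory kinase Bckdk one of -0.37 (adjusted p = 0.0549); neither was called. Bcat2, the transaminase of the first step, overlapped between the groups. With construct 7 the list median was 0.07.

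Among 40 mitochondrial ribosome genes, 2 were called lower and none higher, beside 0.602% and 4.67% of all tested genes. The median was -0.06 beside 0.13 for all genes. Mrpl2 fell from 51.1, 49.2 and 46.3 to 28.8, 38.8 and 33.4 FPKM (-0.53, adjusted p = 0.0406, kept in 8 of 16). A further subunit outside the list, Mrps28, fell from 64.3, 59 and 61.7 to 41.2, 46 and 47.4 FPKM. Its change was -0.45 (adjusted p = 0.0424, kept in 8 of 16). The 15 transcripts encoded by mitochondrial DNA had a median of -0.23 and no call. Their median deviation was -0.45 in construct 5 replicate 1 and -0.12 and -0.14 in replicates 2 and 3, while the controls ranged from -0.14 to 0.20. The share of all FPKM in 30 mitochondrial genes was 28.5%, 26.0% and 24.8% in the controls and 21%, 25.2% and 24.8% with construct 5, so replicate 1 alone fell outside the control range. In glycolysis, Pgam2, the muscle phosphoglycerate mutase, fell from 2531, 2514 and 2412 to 1610, 2048 and 1933 FPKM (-0.42, adjusted p = 0.0494, kept in 1 of 16).

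Translation and RNA genes moved by small amounts. Eef2k, the kinase that inhibits elongation factor 2, fell from 7.97, 8.23 and 11.2 to 5.31, 5.76 and 5.07 FPKM (-0.66, adjusted p = 0.0471, kept in 7 of 16), and Eif4ebp1, a repressor of cap-dependent initiation, rose from 28.3, 30.3 and 25.6 to 45.4, 39.4 and 38.4 FPKM (0.53, adjusted p = 0.0409, kept in 7 of 16). Of 35 splicing factors and heterogeneous ribonucleoproteins 4 were called higher and 0 lower, where 4.67% of all tested genes were called higher, and 24 lay above all controls, where 33.0% of all tested genes did. The median of 0.21 fell to 0.08 after median-ratio scaling, and no member was then called. Hnrnpa1 rose from 32.4, 38.8 and 34.4 to 53.1, 45.8 and 51 FPKM (0.49, adjusted p = 0.0406, kept in 8 of 16). Of 20 microtubule motor genes 3 were called higher, beside the same 4.67%, and none was called after median-ratio scaling. Among the 3 were the dynein subunits Dync1i2 (0.36, kept in 5 of 16) and Dync1li2 (0.30, kept in 5 of 16).

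Immune gene lists are given beside all tested genes, of which 4.67% were called higher, 76.7% had changes above 0 and 33.0% lay above all controls. The 13 tested complement genes all had changes above 0, and 9 lay above all controls. Of the 13, 2 were called higher, and the median was 0.71, or 0.57 after median-ratio scaling. Cd55, the complement-decay accelerator, rose from 13.2, 14.5 and 14.9 to 27.7, 22 and 22.4 FPKM (0.71, adjusted p = 0.0344, kept in 9 of 16) and differed from construct 7 by 0.55 (adjusted p = 0.0443). Properdin, Cfp, rose from 3.22, 3.62 and 3.51 to 5.94, 8.91 and 4.68 FPKM (0.72, adjusted p = 0.0492, kept in 2 of 15). All 15 antigen presentation genes had changes above 0, 9 lay above all controls and 1 was called. The called gene, H2-DMb1, rose from 3.00, 3.73 and 2.82 to 5.97, 8.40 and 4.41 FPKM (0.77, adjusted p = 0.0492, kept in 3 of 15). Of 13 chemokine and receptor genes none was called, 10 had changes above 0 and 8 lay above all controls. Ccl6 measured 5.51, 7.93 and 3.97 FPKM in the controls and 12.2, 17.7 and 8.36 FPKM with construct 5 (1.0, adjusted p = 0.0558). Among B and plasma cell markers, the immunoglobulin heavy chain Ighm was called lower (-1.13, adjusted p = 0.0468, kept in 5 of 16).

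Markers of macrophages moved with these genes. Of 15 tested macrophage markers 3 were called higher, beside 4.67% of all tested genes. The construct 5 libraries of 13 lay above all controls, beside 33.0% of all tested genes. The summed level of all 18 was 156 to 227 FPKM in the controls, 259 to 455 FPKM with construct 5 and 123 to 202 FPKM with construct 7. Construct 5 replicate 2 stood apart for several of these groups. Its median deviation was 1.16 for complement genes against 0.38 and 0.31 in replicates 1 and 3, and 0.87 for antigen presentation genes against 0.52 and 0.16. In that library 8 neutrophil markers summed to 38.4 FPKM, where all others held 0.483 to 2.01 FPKM: S100a8 stood at 14.5 FPKM and S100a9 at 17.9 FPKM, while Ly6g was listed at 0 in every library but this one. The adipose complement factor Cfd stood at 53.5 FPKM there, against 8.12 and 12.9 FPKM in the other construct 5 libraries. The part of these cells in the changes was not tested. Muscle fibre markers checked the tissue label: all 10 were abundant and none was called. The construct 5 libraries of 3 of them, Acta1, Tnnt3 and Mylpf, lay below all controls, where 5.19% of all tested genes did. None lay above all controls, and the median was -0.03 beside 0.13 for all genes. The summed level of the 10 was 79083 to 85691 FPKM in the controls and 72751 to 82550 FPKM with construct 5.

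Of 26 tested matrix crosslinking and remodelling genes 2 were called higher and none lower, beside 4.67% and 0.602% of all tested genes. After median-ratio scaling 1 member was called. All 26 had changes above 0, beside 76.7% of all genes, 15 lay above all controls, beside 33.0%, and the median was 0.38, or 0.26 after median-ratio scaling. The collagen lysyl hydroxylase Plod2 rose from 0.816, 0.866 and 0.906 to 1.54, 1.71 and 1.61 FPKM (0.49, adjusted p = 0.0405, kept in 7 of 15), and Loxl3, a lysyl oxidase, rose from 1.21, 1.14 and 1.06 to 2.02, 1.68 and 1.62 FPKM (0.37, adjusted p = 0.0490, kept in 4 of 15). Timp1, an inhibitor of matrix metalloproteases, measured 2.54, 2.96 and 2.46 FPKM in the controls and 7.66, 5.14 and 6.26 FPKM with construct 5 (1.0, adjusted p = 0.0579). Tendon markers moved with this list: 8 of 9 tested lay above all controls, and the summed level was 47.7 to 70.6 FPKM in the controls and 107 to 154 FPKM with construct 5. Fibroblast markers summed to 546 to 607 FPKM in the controls and to 610, 986 and 626 FPKM with construct 5. The part of tendon or connective tissue taken with the muscle was not tested.

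**Figure D5:**
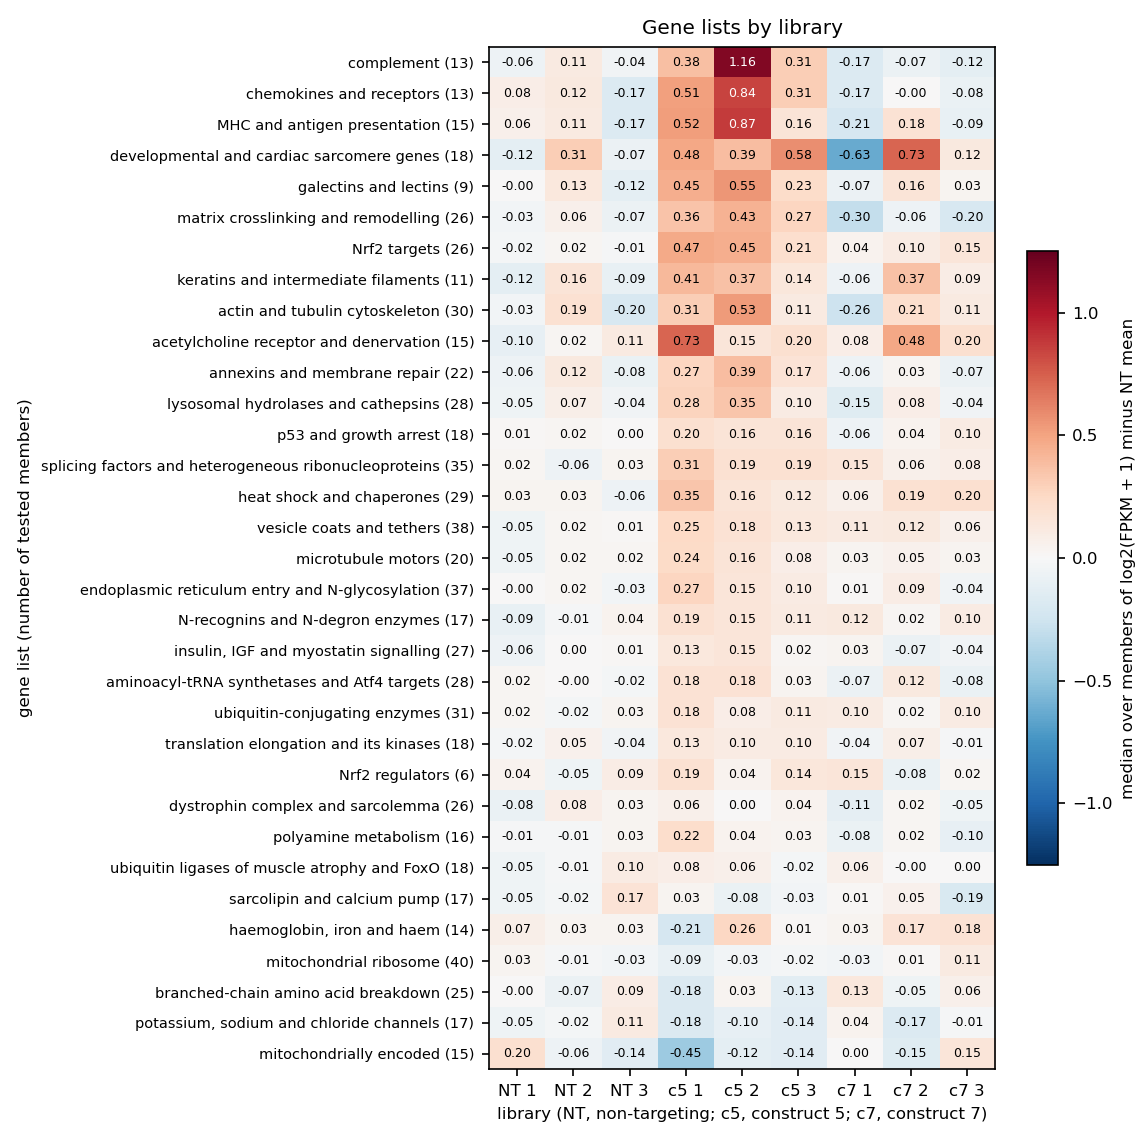
Each cell is the median over the tested members of a list of log2(FPKM + 1) in 1 library minus the control mean; rows are 33 gene lists with their number of tested members, columns the 9 libraries, and red and blue mark values above and below the controls. Construct 5 replicate 2 is darkest for complement (1.16), construct 5 replicate 1 for denervation genes (0.73) and mitochondrially encoded genes (-0.45), and construct 7 libraries disagree on developmental sarcomere genes (-0.63 to 0.73).

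Construct 5 was also compared with construct 7 directly. This difference uses no control mean, but the controls enter the shared estimate of the spread. limma called 132 genes (1.22%), 116 higher (1.07%) and 16 lower (0.148%) with construct 5. A fit of the 6 construct libraries alone called 23 genes. The median of all genes was 0.10. Calls rested on single libraries: without construct 7 replicate 1 or 3 limma called 3 and 4 genes, without construct 7 replicate 2 it called 387, without construct 5 replicate 1 or 2 it called 17 and 38, and without any 1 control it called 52 to 55. Ubr4 differed by 0.27 (95% confidence interval -0.02 to 0.56, adjusted p = 0.246).

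Among these genes, Dync1h1 (-1.02, adjusted p = 0.0277) and Parp1 (-0.53, adjusted p = 0.0327) were called lower with construct 7 than in the controls. Lox (adjusted p = 0.0912), Csrp2 (adjusted p = 0.278) and Postn (adjusted p = 0.544) were not called in that comparison. The heavy chain of dynein, Dync1h1, measured 10.4, 12.6 and 11.3 FPKM in the controls, 16.4, 14.3 and 13.4 FPKM with construct 5 and 4.23, 5.36 and 5.89 FPKM with construct 7, a difference between constructs of 1.36 (adjusted p = 0.00416). Parp1, a DNA damage sensor, overlapped between construct 5 and the controls and was lower with construct 7 at 11.6, 11.8 and 11.4 FPKM (difference 0.58, adjusted p = 0.0119). Lysyl oxidase, Lox, likewise overlapped between construct 5 and the controls and measured 1.48, 1.39 and 1.26 FPKM with construct 7. Of the 26 matrix genes 11 were called between the constructs, and the list median against the controls was 0.38 with construct 5 and -0.17 with construct 7. Periostin, Postn, measured 9.58, 11.7 and 8.26 FPKM in the controls, 18.9, 19.6 and 25.1 FPKM with construct 5 and 2.51, 10.6 and 5.29 FPKM with construct 7 (difference 1.79, adjusted p = 0.0488). Csrp2, a LIM protein of smooth muscle, rose with construct 5 from 2.87, 2.95 and 3.09 to 4.43, 4.29 and 4.46 FPKM. That call against the controls was kept in 6 of 15. With construct 7 Csrp2 measured 1.92, 2.24 and 2.37 FPKM (difference 0.76, adjusted p = 0.00503).

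Trdj1, a joining segment of the T-cell receptor delta locus, had the largest fitted change of any called gene, 3.03 (kept in 8 of 15). Its model is 51 bases long, and its FPKM of 0, 1.82 and 0 in the controls and 17.8, 9.90 and 6.45 with construct 5 correspond to about 0, 3 and 0 recovered reads and 30, 23 and 10 reads. The control level lies at the floor of 3 reads in a library, so its fold depends on the added constant. No T cell marker reached the 1 FPKM mean needed for testing. The 9 T and natural killer cell markers summed to 1.35, 1.2 and 1.5 FPKM in the controls. With construct 5 they summed to 3.09, 3.73 and 1.89 FPKM, and with construct 7 to 0.885, 4.35 and 1.82 FPKM.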

How the data were processed

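RNA was extracted with trizol from tibialis anterior muscle and sequenced as Illumina libraries, per the labels' protocols. The authors deposited 1 table of FPKM values on the mouse build mm9. The submitters' processing notes name BWA, STAR and HTSeq; their versions, their roles, the annotation, the strand and the FPKM denominator are not given in the sources used here. Near-identical or overlapping genes may share reads.

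Columns were matched to libraries by the identifiers in the labels. Low FPKM values are multiples of what 1 read is worth, which with GENCODE M21 exon lengths gave library depths of 29243900 to 45528550 reads, with 72.0% of 51798 values under 50 reads whole within 0.1 reads. At that depth 3 reads on 1 kilobase correspond to 0.066 to 0.103 FPKM, a floor for counting error only. Replicates correlated at 0.9848 to 0.993, and FPKM totals were 478776 to 532345.

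log2(FPKM + 1) of the 10794 genes entered 1 linear model of the 9 libraries (R 4.3.3, limma 3.58.1, moderated with an abundance trend), so that 3 groups share 1 estimate of the spread. The 16 other settings were a pseudocount of 0.1, a minimum of 5 FPKM or none, median-ratio scaling, the 6 libraries alone, a replicate block, weights per library and leaving out each of the 9 libraries. Added after seeing the data were voom on recovered reads (10456 genes), median-ratio scaling without construct 5 replicate 1 and a fit of the 6 construct libraries alone. The fit was tested on simulated data.

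The comparison, the gene lists and the tests were chosen with earlier results of these data known, and no list was tested as a set. Genes were named by rule: Ubr4; the 12 higher and 12 lower calls with the smallest p and no overlap between groups; the 8 of each with the largest FPKM difference; those called under every alternative; up to 5 called members of each list; Sln, Krt8, Rrad, Cdkn1a, Aldh3a1, Nqo1, Ube2e1 and Smox; and the 6 of each direction with the smallest p between constructs. Unnamed gene models were skipped, and the results of some genes are not reported here. Other members of the same pathways, and 3 lists, were chosen after their values were seen, as were Per2 and Postn. Figures were drawn with matplotlib 3.10.9 in Python 3.11.15.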

Additional observations from a re-analysis of the deposited data

Results flagged for a closer look

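For 31 of the genes chosen for description, limma's test of the difference itself (adjusted p under 0.05 among all 10794 genes) separated construct 5 from construct 7. Of all tested genes 1.22% were so called. Some of the 31 were named for their small p in this same comparison and others after their values were seen. Their number is therefore set by the choice and is not a result. The log2 differences, construct 5 minus construct 7, were negative for genes that construct 5 lowered. They were -0.79 for Sec23a, -0.78 for Ube2e1, -0.65 for Trappc1, -0.55 for Tulp4, -0.55 for Kif5b, -0.53 for Wbp2, -0.42 for Prdm4, -0.38 for Ptpn11 and -0.34 for Stt3b. Kif5b, a kinesin heavy chain, was not called against the controls (-0.32, adjusted p = 0.0639). Wbp2, a transcriptional coactivator, fell from 22.2, 23.7 and 22.4 to 17, 18.6 and 16.2 FPKM and measured 26, 25.8 and 24.4 FPKM with construct 7. Its call against the controls was kept in 8 of 16.

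Among genes higher with construct 5 than with construct 7, those of matrix and tendon had differences of 1.79 (Postn), 1.47 (Fn1), 1.06 (Kera), 1.05 (Mmp14), 0.88 (Lox), 0.70 (Spon2), 0.51 (Loxl3) and 0.46 (Plod2). Genes of macrophages, lysosomes and immunity had 1.33 (Ccl6), 1.29 (Lyz2), 0.92 (Ctsk), 0.90 (Cfp) and 0.55 (Cd55). The remaining differences were 1.36 for Dync1h1, 1.03 for Nqo1, 0.85 for Fbxo17, 0.83 for Tmem176b, 0.76 for Csrp2, 0.58 for Parp1, 0.48 for Ubtd2, 0.47 for Spcs3 and 0.45 for Sspn. Ctsk, the collagen-degrading cathepsin K, rose with construct 5 from 8.89, 10.2 and 8.14 to 15.2, 15.5 and 13.6 FPKM. That call against the controls was kept in 7 of 16. With construct 7 Ctsk measured 6.19, 7.86 and 8.05 FPKM.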

How the results depend on the processing

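Genes called higher, 504 in all, numbered 208 with the 6 libraries alone, 159 with a filter at 5 FPKM, 270 with a pseudocount of 0.1, 14 with median-ratio scaling, 3 with no filter, 568 by voom on recovered reads and 0 to 514 with 1 library left out (0 to 308 among those that moved by over 1.5 times). Genes called lower, 65 in all, numbered 38 with the 6 libraries alone, 2 with no filter and 1 to 67 with 1 library left out. Genes called between the constructs, 132 in all, numbered 201 with weights per library, 48 with a filter at 5 FPKM, 23 with the 6 construct libraries alone, 79 with median-ratio scaling, 10 with no filter and 3 to 387 with 1 library left out. Median-ratio scaling without construct 5 replicate 1 left 0 higher, 4 lower and 19 between constructs. The change of Ubr4 was -1.20 with no filter (adjusted p = 0.0523) and -1.29 to -1.09 with 1 library left out (0.0149 to 0.0956). The causes were not tested. With the replicate number as a block limma called 9 genes higher, 2 lower and 217 between constructs; same-numbered control and construct 5 libraries correlated at -0.09, 0.097 and -0.079 in their deviations, so the numbers were not taken as pairs. No called gene changed sign. The medians of 6 of 33 lists did after median-ratio scaling: those of E2 enzymes (0.12 to -0.02), polyamine genes (0.06 to -0.05), translation elongation (0.09 to -0.05), Nrf2 regulators (0.09 to -0.03), atrophy and FoxO ligases (0.01 to -0.13) and the dystrophin complex (0.08 to -0.05). Over every setting run, 8 of 30 list medians changed sign at least once. Over single genes and list medians, 2013 values kept their side of the threshold or their size, 996 lost the call, 43 gained it and 63 moved. Precision is limited by 3 libraries a group, and for low genes by read depth.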

Other observations

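All 9 tested galectin and lectin genes had changes above 0, beside 76.7% of all tested genes. In that list 2 were called higher, beside 4.67% of all tested genes, and none was called after median-ratio scaling. The median was 0.40 beside 0.13 for all genes, or 0.29 after that scaling. Lgals8, which marks damaged vesicles, rose from 7.02, 6.48 and 7.64 to 10.5, 9.44 and 9.51 FPKM (0.43, limma adjusted p = 0.0406, kept in 7 of 16). Lgals3, which is also a macrophage marker, rose from 4.33, 7.26 and 4.76 to 21.5, 14.6 and 11.2 FPKM (1.36, adjusted p = 0.0476, kept in 7 of 16). Of 28 lysosomal genes 4 were called higher, again beside 4.67% of all tested genes, and none was called after median-ratio scaling. Their median was 0.29, or 0.15 after that scaling. Among the 4, the lysosomal membrane protein Lamp2 rose from 6.78, 7.47 and 6.56 to 9.49, 9 and 8.49 FPKM. Its change was 0.33 (adjusted p = 0.0438, kept in 6 of 16). Its relative Lamp1 measured 186, 197 and 200 FPKM in the controls and 170, 178 and 161 FPKM with construct 5, a change of -0.20 that was not called (adjusted p = 0.0997). The macrophage markers given above moved with these genes, and their part was not tested.

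Of 22 annexin and membrane repair genes 3 were called higher and 1, Cav3, lower, beside 4.67% and 0.602% of all tested genes. After median-ratio scaling 1 member was called. Anxa7 rose from 13.7, 17.9 and 12.1 to 31.6, 21.1 and 24.8 FPKM (0.79, adjusted p = 0.0493, kept in 3 of 16), and Ahnak, a giant scaffold that binds dysferlin and annexins, rose from 9.53, 12.4 and 12 to 18.8, 17.4 and 14.8 FPKM (0.55, adjusted p = 0.0471, kept in 6 of 16). Chaperones held 1 higher call among 29 genes, beside 4.67% of all tested genes, and none was called after median-ratio scaling. The cytosolic chaperone Hsp90aa1 measured 10.8, 11.2 and 10.1 FPKM in the controls, 30.6, 16.7 and 15.7 FPKM with construct 5 and 15.2, 16.8 and 19.4 FPKM with construct 7, a change with construct 5 of 0.85 that was not called (adjusted p = 0.0503). Hsf1, the transcription factor of heat shock genes, had a change of -0.35 (adjusted p = 0.0677).

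The immunoglobulin heavy chain Ighm fell from 26.9, 17.5 and 27.6 to 8.20, 14.9 and 8.74 FPKM. Its change was -1.13 (adjusted p = 0.0468, kept in 5 of 16). It was the only tested member of 7 B and plasma cell markers. The others were under 1 FPKM on average.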
